A study of Mus musculus with 18 samples.

Results

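The comparison described here asked, gene by gene, whether the difference between KO and WT was itself different in liver and in inguinal white fat (iWAT). It used the 12 libraries of these tissues out of the 18 in the series, chosen by their labels alone, and each gene's value is KO minus WT in liver, minus KO minus WT in iWAT. KO mice were C57BL/6 mice, 12 weeks old, with a floxed Bckdha gene and RIP-Cre (Bckdha f/f;RIP-Cre). WT mice had the same strain, age and floxed gene without RIP-Cre (Bckdha f/f). There were 3 KO and 3 WT libraries from liver, and 3 KO and 3 WT libraries from iWAT.

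RIP-Cre places Cre recombinase under the rat insulin promoter, whose known activity is in beta cells of the pancreas and in some neurons. Neither cell type was profiled. Mice with RIP-Cre and an intact Bckdha gene were not among the groups, so an effect of the transgene alone and an effect of the deletion cannot be told apart. The labels give no sex. They also leave unsaid whether each library is a separate animal, and the p-values here therefore reflect the spread among libraries, part of which may be technical.

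Bckdha encodes the alpha subunit of the ketoacid dehydrogenase that commits the carbon skeletons of leucine, isoleucine and valine to breakdown. Liver and inguinal fat exchange fuels and hormones but run different programmes: hepatocytes make plasma proteins, glucose and bile acids, while inguinal fat stores lipid and holds a stroma of fibroblasts, blood vessels, macrophages and a lymph node. Both tissues respond to growth hormone through the transcription factor STAT5 and to insulin through the lipogenic factor SREBP.

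Total expected counts per library ranged from 18629302 to 25969223 in liver and from 17959394 to 28039742 in iWAT. Levels are given in CPM, a gene's count as a share of the TMM-scaled total of its library. Defining markers matched the labelled tissues: each of 10 hepatocyte markers stood in iWAT at 0.0692% to 0.192% of its liver level, and adipocyte markers stood in liver at 0.362% to 4.12% of their iWAT level. The iWAT libraries varied more than the liver libraries, with a common biological coefficient of variation of 0.438 against 0.236 in liver, while the fit used a single spread per gene for both tissues. WT iWAT library 2 stood apart from the other 5 iWAT libraries: the B cell gene Cd79a had 0.791 CPM there and 86.8 to 280 CPM in the others, and the skeletal muscle gene Acta1 had 110 CPM there. WT iWAT library 1 stood apart in other markers. Its plasma cell markers summed to 11362 CPM, against 320 to 1205 CPM in the other iWAT libraries. Its neutrophil markers summed to 476 CPM, against 9.8 to 99 CPM in the others. In liver, WT library 2 held 134 CPM summed over the endothelial markers, against 343 to 470 CPM in the other liver libraries.

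No gene passed the test of a different genotype effect in liver and iWAT. Of 14673 genes tested, 0 were called in either direction at an adjusted p under 0.05 with edgeR's quasi-likelihood test (0.0% of genes), and the lowest adjusted p was 0.175. Without adjustment, 705 genes had p under 0.05, which is 4.8% of those tested, against 734 that a uniform p gives. DESeq2 on the same counts called 35 genes, 0.239% of the 14641 genes for which it gave an adjusted p. Of these, 19 had a positive difference (0.13%) and 16 a negative one (0.109%). All of the 12 genes named below for their low p were among these 35.

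The estimated genotype effects of the tissues were nearly uncorrelated across genes. Pearson's r between the log2 fold changes of liver and iWAT was 0.011 over all genes and 0.07 over the 10963 genes with at least 1 CPM in both tissues. These are descriptions across genes, which are not independent replicates. Errors in the fold changes lower r, so a low r cannot show that the underlying effects differ between the tissues. Among the 705 genes with an unadjusted p under 0.05, 610 had effects of opposite sign in the tissues, which the choice of a large difference favours. The absolute change was larger in iWAT for 369 of them and larger in liver for 336. The median difference over all genes was -0.02 on the log2 scale, and the median SE of a difference was 0.40, against 0.28 within either tissue.

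**Figure D1:**
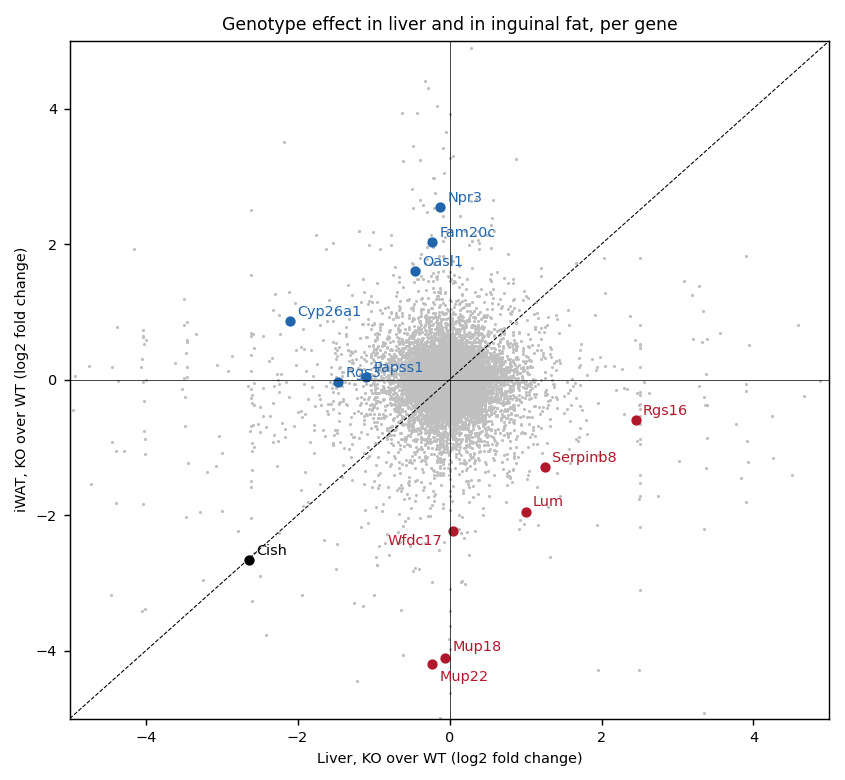
Each point is a gene, with its log2 fold change of KO over WT in liver on the horizontal axis and in iWAT on the vertical axis, for the 13118 genes with a mean of at least 1 CPM (13 lie beyond the axes). Red points are the 6 named genes with a positive difference, liver minus iWAT, blue points the 6 with a negative one, and the dashed line marks equal effects, on which Cish lies at -2.64 in liver and -2.66 in iWAT.

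Within single tissues of the same fit, 0 genes were called in liver (0.0%; lowest edgeR adjusted p 0.0739; 659 genes, 4.49%, had an unadjusted p under 0.05) and 5 in iWAT (0.0341%; 828 genes, 5.64%, without adjustment). In iWAT Mup18, Mup22, Wfdc17 and Cish fell (0.0273% of genes did) and Fam20c rose (0.00682%). A call in 1 tissue does not show that the tissues differ, which is the test above. The fit used a single spread per gene although the iWAT libraries varied more, so 0 and 5 calls do not rank the tissues. In an alternative fit with a variance per tissue (limma-voom), more genes were called in liver than in iWAT. The number of iWAT calls depended on single libraries: 0 genes were called without KO iWAT library 3, without WT liver library 1 or without any one of the KO liver libraries, 1 without KO iWAT library 2, and 11 without WT iWAT library 1.

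Bckdha itself gave no difference between the tissues' genotype effects. The liver level was 398, 318 and 282 CPM in KO libraries, against 318, 371 and 379 CPM in WT libraries. The iWAT level was 151, 74.2 and 102 CPM in KO libraries and 75.5, 144 and 125 CPM in WT libraries. The genotypes overlapped in both tissues, and the difference was -0.02 ± 0.41 on the log2 scale (SE, edgeR adjusted p = 1.0). Since the Cre is driven in cells that were not profiled, they cannot serve as a check of the labels (mm10 chr7:25629946-25658981, minus strand).

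The genes with the lowest p for the difference differed in which tissue carried most of the difference. They were chosen for that p and do not pass the adjusted threshold, so their differences are given as descriptions with their errors. Among those with a positive difference, the sizes were set mostly by iWAT for Mup18, Mup22, Lum and Wfdc17, and by liver for Rgs16.

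Mup18 and Mup22 belong to the major urinary proteins, lipocalins that the mouse liver secretes and that carry volatile pheromones into urine, and whose hepatic transcription is known to depend on growth hormone. Both were abundant in liver of either genotype and stood much lower in KO iWAT than in WT iWAT. To show what these promoters look like beside a relative whose iWAT levels overlapped between the genotypes, the sequences of Mup18 and Mup3 are printed from 250 bases before to 50 bases after the RefSeq start (GRCm38.p6, the build also called mm10; minus strand, Mup18 at chr4:61674045-61674344 and Mup3 at chr4:62087268-62087567). Capitals mark TATATAA, a core promoter motif, searched on both strands.

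Mup18: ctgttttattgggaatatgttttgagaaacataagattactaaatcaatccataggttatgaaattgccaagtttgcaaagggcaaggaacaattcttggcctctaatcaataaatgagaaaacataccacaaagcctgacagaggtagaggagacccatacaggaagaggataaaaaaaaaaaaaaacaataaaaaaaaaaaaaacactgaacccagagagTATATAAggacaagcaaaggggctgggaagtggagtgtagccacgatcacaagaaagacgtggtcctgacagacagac

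Mup3: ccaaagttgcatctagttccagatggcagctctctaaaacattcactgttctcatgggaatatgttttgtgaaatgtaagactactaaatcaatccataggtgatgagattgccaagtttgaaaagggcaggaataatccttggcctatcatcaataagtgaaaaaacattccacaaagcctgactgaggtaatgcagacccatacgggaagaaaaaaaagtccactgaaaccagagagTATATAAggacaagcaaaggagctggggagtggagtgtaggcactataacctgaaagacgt

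Each window held 1 match. In Mup18 it lay 28 to 22 bases before the annotated start and in Mup3 11 to 5 bases before it. TATATAA was present in 1065 of 32851 RefSeq promoters of the same length, 3.24%. A match describes letters and is neither a binding site nor a cause. Mup22 was not in the promoter table.

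In iWAT, Mup18 (chr4:61670177-61674136, minus strand) had 30.5, 12.5 and 24.8 CPM in KO libraries, against 255, 397 and 524 CPM in WT libraries. In liver it had 8524, 13725 and 11509 CPM in KO libraries and 11247, 15800 and 8089 CPM in WT libraries. Every KO iWAT library was below every WT iWAT library, and the liver groups overlapped. Mup18 fell in iWAT by 4.11 ± 0.46 on the log2 scale, or 17.3-fold (edgeR adjusted p = 0.0255), with a log2 fold change of -0.06 in liver. The difference was 4.06 ± 0.59 (SE, edgeR adjusted p = 0.175).

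Mup22 (chr4:60817589-60821463, minus strand) showed the same arrangement. It had 80.8, 40.5 and 64.3 CPM in KO iWAT libraries, against 771, 992 and 1651 CPM in WT iWAT libraries. Its liver level was 23572, 41549 and 30548 CPM in KO libraries and 29725, 58215 and 23933 CPM in WT libraries. The iWAT groups did not overlap and the liver groups did. Mup22 fell in iWAT 18.4-fold (log2 fold change -4.20 ± 0.50, edgeR adjusted p = 0.0258), and the difference was 3.98 ± 0.64 (adjusted p = 0.21).

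The lower iWAT level was not shared by all members of the family. Of 22 Mup genes in the files, 19 were tested, and 12 of these had a positive difference. In 7 of the 19 (Mup2, Mup9, Mup11, Mup12, Mup16, Mup18 and Mup22) every KO iWAT library was below every WT iWAT library, an arrangement found in 5.7% of all genes. Mup12 and Mup2 were among the lowest of these in iWAT. Mup12 had means of 0.178 CPM in KO and 0.437 CPM in WT iWAT, and Mup2 0.358 and 2.04 CPM. Expressed as a share of the same gene's liver mean, Mup18 stood in iWAT at 0.201% in KO and 3.34% in WT, and Mup22 at 0.194% in KO and 3.05% in WT. Mup9 stood at 0.143% in KO and 1.33% in WT.

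Mup3 and Mup20 had a low share in either genotype. Mup3 stood at 0.101% in KO and 0.0869% in WT, and Mup20 at 0.0817% in KO and 0.0751% in WT. These shares lie within the range of the 10 hepatocyte markers given above. Of the 15 Mup genes with a mean of at least 100 CPM in WT liver, 6 in WT iWAT and 3 in KO iWAT lay above that hepatocyte range. These counts rest on 1 marker, since Apob sets the top at 0.192% and the next, Apoa1, stood at 0.113%. Shares between these values, such as that of Mup9 in KO at 0.143%, are counted as inside. The marker shares pool the genotypes.

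Mup transcripts are so alike that the division of reads among them is uncertain. The Mup18 and Mup22 transcripts differed at 5 of 861 aligned bases (99.4% identity), whereas Mup18 shared 87.2% with Mup3 and 90.8% with Mup20. The 7 genes above are therefore not 7 separate observations. In bulk tissue, fewer cells of a type and less RNA per cell cannot be told apart. Whether the reads come from fat cells was not tested.

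**Figure D2:**
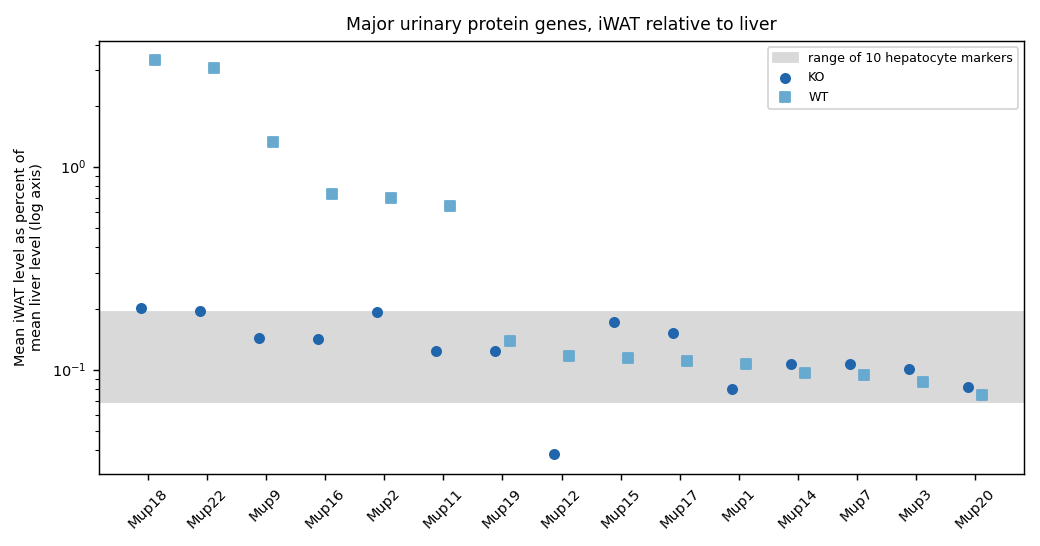
Mean iWAT level as a percent of the mean liver level (log axis) for 15 Mup genes, KO as circles and WT as squares, with the range of 10 hepatocyte markers in grey (0.0692% to 0.192%). Mup18 and Mup22 reach 3.34% and 3.05% in WT and 0.201% and 0.194% in KO, while the genes at the right, such as Mup3 and Mup20, lie in the grey band in either genotype.

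Rgs16, a regulator that speeds GTP hydrolysis by G protein alpha subunits and so shortens receptor signalling, had the lowest p of all genes (chr1:153740349-153745468, plus strand). The liver level was 34.6, 26.2 and 16.3 CPM in KO libraries, against 3.67, 5.47 and 4.99 CPM in WT libraries. In iWAT it had 3.45, 3.91 and 4.65 CPM in KO libraries and 4.74, 5.97 and 7.51 CPM in WT libraries. Every KO library was above every WT library in liver and below every WT library in iWAT. The log2 fold change was 2.45 ± 0.31 in liver (edgeR adjusted p = 0.0739) and -0.60 ± 0.29 in iWAT, and the difference was 3.05 ± 0.42 (unadjusted p = 1.49e-05, adjusted p = 0.175). Opposite separation was found in 72 genes, 0.491% of those tested, with 36 higher in KO liver and lower in KO iWAT (0.245%) and 36 the other way (0.245%). Separation in the same direction was found in 96 genes, 0.654%. Over single tissues, the groups did not overlap in either direction for 11.8% of genes in liver and 9.38% in iWAT. Opposite separation was no more frequent than these shares give when tissues are unrelated.

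Lum encodes lumican, a small proteoglycan that binds collagen fibrils (chr10:97565128-97572703, plus strand). Its liver level was 10, 9.78 and 10.5 CPM in KO libraries and 5.71, 3.80 and 5.61 CPM in WT libraries. Its iWAT level was 31.4, 26.2 and 23.9 CPM in KO libraries and 99.9, 163 and 51.7 CPM in WT libraries. The groups were again apart in opposite directions. The difference was 2.94 ± 0.48 (SE, edgeR adjusted p = 0.21), from 1.0 in liver and -1.95 in iWAT. It passed the threshold without WT iWAT library 3 (3.27, adjusted p = 0.0283) and was 2.46 without WT iWAT library 2.

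Wfdc17 encodes a small secreted protein of the whey acidic protein family that macrophages make (chr11:83703991-83706268, plus strand). Its iWAT level was 11.6, 9.25 and 10.8 CPM in KO libraries, against 25.8, 74.4 and 48.3 CPM in WT libraries. In liver it had 24.5, 26.9 and 25.9 CPM in KO libraries and 24.7, 28.2 and 22.4 CPM in WT libraries. Wfdc17 fell in iWAT (log2 fold change -2.23 ± 0.31, edgeR adjusted p = 0.044), where the groups did not overlap, and its log2 fold change in liver was 0.04. The difference of 2.27 ± 0.43 had an adjusted p of 0.484 and passed the threshold without WT iWAT library 1 (2.58, adjusted p = 0.0299).

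Of 10 macrophage markers, 7 had a negative and 3 a positive iWAT fold change. Their sum, which the most abundant of them dominate, was 906, 1424 and 1389 CPM in KO iWAT libraries and 1988, 1904 and 2173 CPM in WT iWAT libraries, without overlap. Their mean log2 CPM, which weights each marker equally, was 4.65, 4.86 and 4.98 in KO iWAT libraries and 5.19, 4.73 and 5.72 in WT iWAT libraries, with overlap. In liver the sums were 714 to 754 CPM in KO and 653 to 908 CPM in WT. In iWAT 5 of the 10 markers, Adgre1, Cd68, Csf1r, Lyz2 and Mrc1, were lower in every KO library than in every WT library (5.7% of all genes were). The Kupffer cell gene Clec4f was near 0 in iWAT, at 0.131 CPM in KO and 0.102 CPM in WT on average. The part of macrophage content in the Wfdc17 values was not tested.

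Serpinb8, an intracellular serine protease inhibitor, was the remaining gene named for a positive difference (chr1:107590006-107610484, plus strand). Its liver level was 2.12, 2.36 and 2.77 CPM in KO libraries and 1.06, 0.65 and 1.31 CPM in WT libraries. Its iWAT level was 5.77, 4.59 and 5.66 CPM in KO libraries and 7.68, 17.9 and 13.7 CPM in WT libraries. The groups were apart in both tissues and in opposite directions, with a difference of 2.55 ± 0.49 (SE, edgeR adjusted p = 0.484).

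Among the 6 genes named for a negative difference, Fam20c, Oasl1 and Npr3 stood higher in KO iWAT, and Papss1, Rgs3 and Cyp26a1 stood lower in KO liver. Fam20c encodes the Golgi kinase that phosphorylates secreted proteins (chr5:138754514-138810077, plus strand). The iWAT level was 82.5, 34.5 and 48.8 CPM in KO libraries, against 14.2, 14.1 and 12.1 CPM in WT libraries. Its liver level was 115, 96.8 and 107 CPM in KO libraries and 128, 114 and 133 CPM in WT libraries. Fam20c rose 4.09-fold in iWAT (log2 fold change 2.03 ± 0.27, edgeR adjusted p = 0.0378), where the groups did not overlap, and its log2 fold change in liver was -0.23. The difference was -2.27 ± 0.37 (adjusted p = 0.21).

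Oasl1 encodes an interferon-induced relative of the oligoadenylate synthetases (chr5:114923240-114937915, plus strand). KO liver libraries held 13.5, 8.21 and 10.5 CPM, and WT liver libraries 14.7, 14.2 and 15.3 CPM. KO iWAT libraries held 7.24, 15.1 and 14.2 CPM, and WT iWAT libraries 3.44, 4.18 and 4.42 CPM. KO lay below WT in liver and above WT in iWAT without overlap, and the difference was -2.06 ± 0.40 (SE, edgeR adjusted p = 0.484).

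Npr3 encodes the natriuretic peptide clearance receptor, which removes natriuretic peptides and so limits their lipolytic signal in fat (chr15:11839896-11907287, minus strand). It had 83.8, 32.4 and 43.1 CPM in KO iWAT libraries, against 6.39, 14.5 and 6.49 CPM in WT iWAT libraries. In liver it was low, at 2.28, 2.60 and 2.14 CPM in KO libraries and 3.10, 2.04 and 2.46 CPM in WT libraries. The iWAT groups did not overlap, and the iWAT log2 fold change of 2.54 ± 0.40 had an edgeR adjusted p of 0.0928. The difference was -2.66 ± 0.58 (adjusted p = 0.658).

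Papss1 makes the sulfate donor of sulfotransferases (chr3:131564768-131643671, plus strand). The liver level was 15.9, 15.8 and 17.8 CPM in KO libraries, against 37.0, 36.4 and 32.4 CPM in WT libraries. In iWAT it had 35.9, 28.5 and 34.4 CPM in KO libraries and 29.5, 37.1 and 29.2 CPM in WT libraries. The liver groups were well apart and the iWAT groups overlapped. The difference of -1.14 ± 0.22 (SE, edgeR adjusted p = 0.484) came from -1.10 in liver and 0.04 in iWAT.

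Rgs3, like Rgs16 a regulator of G protein signalling, moved the other way in liver (chr4:62559847-62704001, plus strand). It had 14.2, 7.43 and 9.19 CPM in KO liver libraries, against 34.0, 24.6 and 26.4 CPM in WT liver libraries. In iWAT all libraries were close, at 61.1, 61.1 and 66.4 CPM in KO and 63.6, 64.0 and 65.9 CPM in WT. The liver groups did not overlap. The difference was -1.43 ± 0.31 (SE, edgeR adjusted p = 0.658), nearly all of it from liver, at -1.47.

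Cyp26a1 encodes the cytochrome P450 that clears retinoic acid, and its transcription is known to be induced by retinoic acid through paired receptor sites (chr19:37697798-37701536, plus strand). Its RefSeq promoter is printed because it holds such a pair (GRCm38.p6, chr19:37697558-37697857, plus strand). Capitals mark AGTTCA, searched on both strands and here read on the reverse strand as TGAACT.

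Cyp26a1: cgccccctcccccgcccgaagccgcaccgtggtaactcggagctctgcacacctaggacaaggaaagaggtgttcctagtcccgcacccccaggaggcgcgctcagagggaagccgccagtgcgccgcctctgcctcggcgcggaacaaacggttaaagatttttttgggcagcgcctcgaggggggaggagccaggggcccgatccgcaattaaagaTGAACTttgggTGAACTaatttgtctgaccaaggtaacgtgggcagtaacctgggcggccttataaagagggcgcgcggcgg

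The 2 copies were 5 bases apart, from 32 to 16 bases before the annotated start, and overlapped no TATATAA match. AGTTCA was present in 4597 of the 32851 promoters (14.0%), and a pair of them in the same direction with 5 bases between in 8 (0.0244%). The match describes letters only.

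In liver, Cyp26a1 had 52.3, 49.5 and 31.2 CPM in KO libraries, against 213, 194 and 164 CPM in WT libraries. In iWAT it was close to 0, at 0.369, 0.125 and 0.135 CPM in KO libraries and 0.232, 0.051 and 0.0955 CPM in WT libraries. The liver groups did not overlap, with a log2 fold change of -2.10 ± 0.34 (edgeR adjusted p = 0.136). The difference of -2.96 ± 0.67 (adjusted p = 0.684) includes 0.86 ± 0.58 from an iWAT level of a few reads per library, so only its liver term is well measured.

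**Figure D3:**
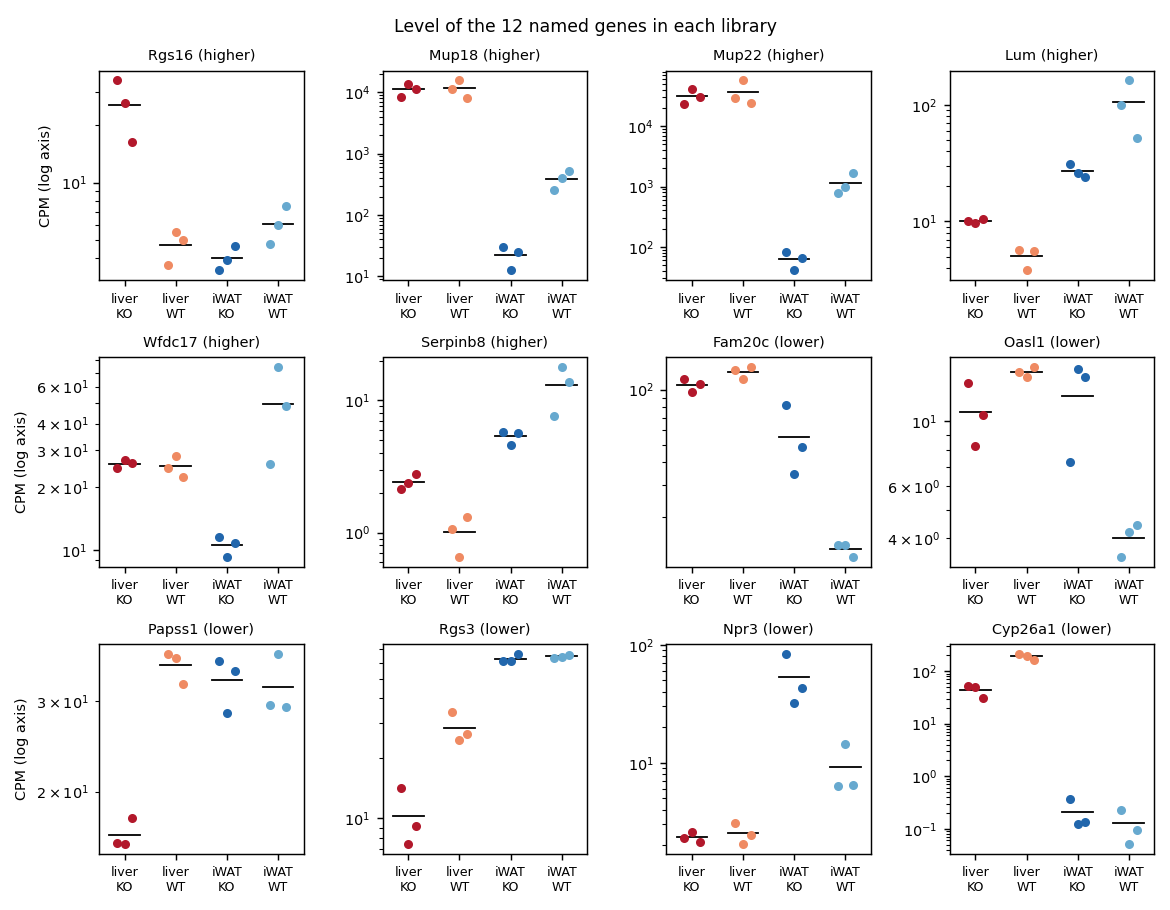
CPM of the 12 named genes in each library on log axes, with KO left of WT within liver and within iWAT, points for the 3 libraries and a bar for their mean; higher and lower in the panel titles give the sign of the difference, liver minus iWAT. Fam20c has 34.5 to 82.5 CPM in KO iWAT and 12.1 to 14.2 CPM in WT iWAT with overlapping levels in liver, and Papss1 has 15.8 to 17.8 CPM in KO liver and 32.4 to 37.0 CPM in WT liver with overlapping levels in iWAT.

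Cish is the counterpart of these genes, since its genotype effect was nearly the same in the tissues; it was added to the description after its values had been seen. It encodes a feedback inhibitor of cytokine and growth hormone receptors that STAT5 induces (chr9:107296026-107302784, plus strand). In liver it had 7.89, 6.04 and 4.44 CPM in KO libraries, against 38.6, 31.5 and 44.3 CPM in WT libraries. Its iWAT level was 4.01, 5.09 and 5.29 CPM in KO libraries and 15.4, 40.3 and 35.2 CPM in WT libraries. KO and WT were apart in both tissues. Cish fell 6.32-fold in iWAT (log2 fold change -2.66 ± 0.35, edgeR adjusted p = 0.0378), and its liver log2 fold change was -2.64 ± 0.35 (adjusted p = 0.0739). The difference was 0.02 ± 0.46, and its sign varied with the processing.

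Other genes of the growth hormone and STAT5 list differed more between the tissues than Cish did, without passing the test. Bcl6, a transcriptional repressor that STAT5 represses, had 52.3, 57.1 and 37.5 CPM in KO liver libraries, against 7.40, 3.25 and 4.23 CPM in WT liver libraries. The iWAT level was 65.3, 52.6 and 52.5 CPM in KO libraries and 38.8, 11 and 15.9 CPM in WT libraries. KO lay above WT in both tissues. The log2 fold change was 3.29 in liver (edgeR adjusted p = 0.0908) and 1.38 in iWAT, a difference of 1.92 ± 0.61 (adjusted p = 0.938).

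Socs2, a suppressor of growth hormone signalling, had 3.09, 2.66 and 2.30 CPM in KO liver libraries and 13.5, 4.73 and 8.30 CPM in WT liver libraries, with overlapping levels in iWAT. Its difference was -1.50 ± 0.49 (edgeR adjusted p = 0.973). For Stat5b, the growth hormone signal transducer, it was -0.56. Of the 13 members tested, 5 had a positive difference, and 0 were called in either direction (0.0% of all genes). The list's medians were -0.44 in liver and -0.18 in iWAT, with a median difference of -0.10, against -0.02 over all genes.

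Extracellular matrix genes had the median difference farthest from 0 among the 28 pathway lists. All 23 members tested had a positive difference, against 48.5% of all genes, and the median difference was 1.37. None was called, and 9 had an unadjusted p under 0.05 (4.8% of all genes did). In iWAT 22 of 23 had a negative fold change and 10 were lower in every KO library than in every WT library (5.7% of all genes were). In liver 19 of 23 had a positive fold change, but only Lum and Dcn were higher in every KO library (4.76% of all genes were). The medians were 0.38 in liver and -1.05 in iWAT.

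Dcn encodes decorin, a proteoglycan related to lumican. Decorin mRNA in liver was 141, 146 and 176 CPM in KO libraries and 132, 80.9 and 125 CPM in WT libraries. The iWAT values were 651, 434 and 334 CPM in KO libraries and 663, 1249 and 847 CPM in WT libraries. The groups were apart in opposite directions by narrow margins, with a difference of 1.41 ± 0.44 (SE, edgeR adjusted p = 0.938).

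Fbn1 encodes fibrillin, the backbone of microfibrils. It had 38.2, 36.7 and 56.7 CPM in KO iWAT libraries, against 62.8, 190 and 89.5 CPM in WT iWAT libraries. Its liver level was 5.78, 3.38 and 7.61 CPM in KO libraries and 4.37, 2.32 and 3.07 CPM in WT libraries. The iWAT groups did not overlap and the liver groups did. The difference was 2.14 ± 0.61 (SE, edgeR adjusted p = 0.841).

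Fibrillar collagens were highest in WT iWAT library 2. Col1a1, a chain of type I collagen, had 101, 97.2 and 155 CPM in KO iWAT libraries and 259, 1011 and 213 CPM in WT iWAT libraries. In liver Col1a1 reached 33.0 CPM in KO library 3, with 6.35 and 2.66 CPM in the other KO libraries and 3.67, 15.6 and 2.92 CPM in WT libraries. Its difference was 3.01 ± 1.3 (SE, edgeR adjusted p = 0.973). Col4a1 and Col4a2, chains of basement membrane collagen, had differences of only 0.32 and 0.15.

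The size of this pattern rests on a few libraries. Averaged over the list, log2 CPM was 6.53, 6.21 and 6.56 in KO iWAT libraries and 6.84, 8.06 and 6.83 in WT iWAT libraries, without overlap. In liver it was 3.62, 2.88 and 4.28 in KO libraries and 3.47, 3.35 and 3.14 in WT libraries, with overlap. The median difference was 0.78 without WT iWAT library 2 and 0.78 without KO liver library 3. The highest library was the same for markers of fibroblasts, whose groups overlapped. Their sum was 788, 531 and 708 CPM in KO iWAT libraries and 525, 1575 and 757 CPM in WT iWAT libraries. Of these 8 markers, 6 had a positive difference. The part of fibroblast content in the matrix values was not tested.

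**Figure D4:**
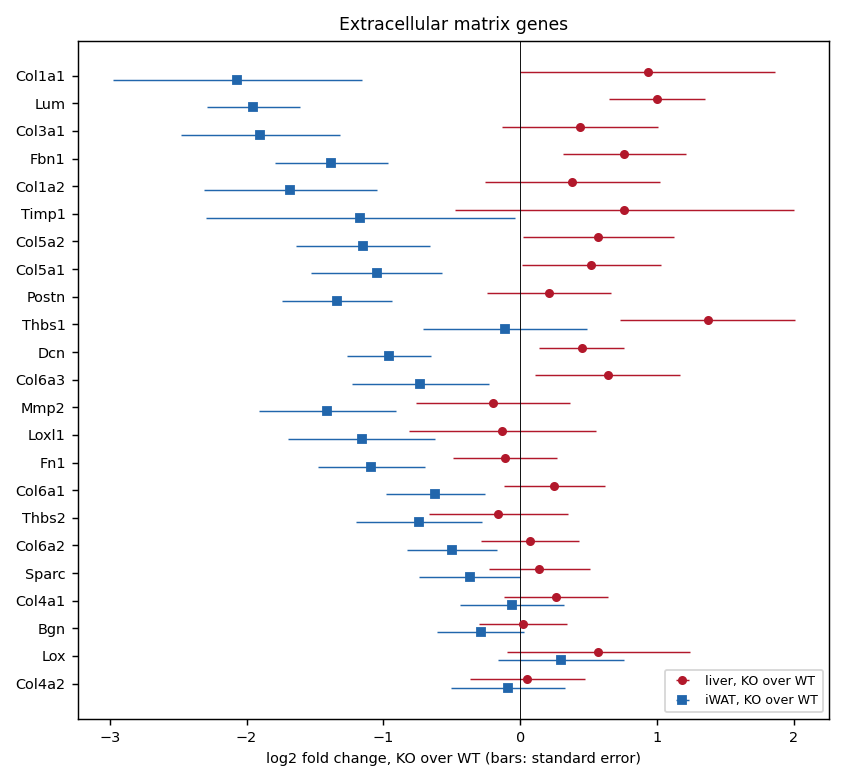
Log2 fold change of KO over WT for the 23 extracellular matrix genes tested, in liver (red circles) and iWAT (blue squares), with bars of 1 standard error, ordered by the difference between the tissues. Lum (1.0 in liver, -1.95 in iWAT) has separated bars, while Col4a2 at the bottom (0.05 in liver, -0.09 in iWAT) has overlapping ones.

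Interferon response genes showed the opposite arrangement. Of 18 members tested, 17 had a negative difference, with a median of -0.67, and 17 had a positive iWAT fold change. None was called. The medians were 0.13 in liver and 0.80 in iWAT, and 5 members were higher in every KO iWAT library than in every WT iWAT library (3.68% of all genes were). Irf7, the transcription factor that amplifies interferon production, had 48.2, 126 and 111 CPM in KO iWAT libraries, against 32.4, 35.5 and 45 CPM in WT iWAT libraries. The liver level was 67.4, 60.9 and 62.9 CPM in KO libraries and 58.9, 62.5 and 44.1 CPM in WT libraries. Its difference was -1.13 ± 0.43 (SE, edgeR adjusted p = 0.973).

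Usp18, which removes the ubiquitin-like modifier ISG15, had 12.7, 37.9 and 30.3 CPM in KO iWAT libraries and 10.9, 9.11 and 11.5 CPM in WT iWAT libraries. Its difference was -1.23 ± 0.45, and that of Irf1, another interferon-induced transcription factor, was -0.69 ± 0.31 (SE; edgeR adjusted p = 0.973 for each). KO iWAT library 1 was the lowest KO library for both Irf7 and Usp18. Averaged over the list, log2 CPM was 4.04, 5.29 and 4.87 in KO iWAT libraries and 3.99, 3.91 and 4.12 in WT iWAT libraries, so KO library 1 lay within the WT range. Lymphocyte markers followed the same libraries in part. The B cell sum was 284, 985 and 906 CPM in KO iWAT libraries and 1073, 3.26 and 456 CPM in WT iWAT libraries. The T cell sum was 166, 587 and 479 CPM in KO and 407, 9.41 and 255 CPM in WT. The part of lymphocyte content in the interferon values was not tested.

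Genes of fatty acid oxidation leaned to higher KO levels in liver. Of 18 beta-oxidation genes tested, 14 had a positive difference, with medians of 0.32 in liver and -0.19 in iWAT and a median difference of 0.55. In liver 7 were higher in every KO library (4.76% of all genes were). Hadhb, the beta subunit of the trifunctional protein, had 456, 529 and 405 CPM in KO liver libraries and 347, 324 and 343 CPM in WT liver libraries, with a difference of 0.97. Etfdh, which passes electrons from beta-oxidation to ubiquinone, had 291, 387 and 338 CPM in KO liver libraries and 230, 221 and 211 CPM in WT liver libraries, with a difference of 0.95. Hadha, the alpha subunit, had a difference of 0.80. No member passed the test in either tissue, and the iWAT log2 fold changes were -0.52 for Hadhb, -0.33 for Etfdh and -0.43 for Hadha.

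Targets of PPAR-alpha, the nuclear receptor that drives hepatic fat oxidation in fasting, had positive differences for 14 of 20 members, with medians of 0.63 in liver and 0.18 in iWAT. Ehhadh, the bifunctional enzyme of peroxisomal oxidation, had 939, 963 and 435 CPM in KO liver libraries, against 390, 330 and 426 CPM in WT liver libraries. In iWAT it had 22.6, 17.4 and 17 CPM in KO libraries and 19.5, 43.9 and 50.4 CPM in WT libraries. KO liver library 3 lay just above the highest WT library. The difference was 2.03 ± 0.52 (SE, edgeR adjusted p = 0.76). For the peroxisomal thiolase Acaa1b it was 1.60, and for the thioesterase Acot1 it was 2.61, with 81.6, 58.0 and 13.1 CPM in KO liver libraries and 11.1, 11.4 and 21 CPM in WT liver libraries. KO liver library 3 was the lowest KO library for all 3 genes.

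Lipogenic genes had mostly negative fold changes in both tissues. Of 20 tested, 18 had a negative fold change in liver and 18 in iWAT, with medians of -0.43 and -0.84. The median difference was 0.45, with 14 differences positive and 6 negative, and none was called. Averaged over the list, log2 CPM was 8.03, 7.10 and 7.90 in KO iWAT libraries and 7.78, 8.73 and 8.70 in WT iWAT libraries, with overlap. In each tissue 5 members were lower in every KO library than in every WT library (7.0% of all genes in liver and 5.7% in iWAT). Me1, malic enzyme, which supplies NADPH for lipid synthesis, had 967, 426 and 861 CPM in KO iWAT libraries and 1005, 1817 and 2396 CPM in WT iWAT libraries, with overlapping levels in liver and a difference of 1.09 ± 0.49. Elovl5, a fatty acid elongase, had a difference of 0.89. Pklr, the liver form of pyruvate kinase, had at most 1.73 CPM in any iWAT library, so its difference is poorly measured.

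Cholesterol synthesis genes leaned the other way. Of 24 tested, 23 had a negative difference, with a median of -0.47, from medians of -0.32 in liver and 0.07 in iWAT. In liver 6 were lower in every KO library (7.0% of all genes were). Insig1, the membrane protein that holds the SREBP escort in the endoplasmic reticulum, had 471, 358 and 347 CPM in KO liver libraries, against 557, 517 and 832 CPM in WT liver libraries. Its iWAT level was 285, 137 and 180 CPM in KO libraries and 72.4, 69.2 and 115 CPM in WT libraries. KO lay below WT in liver and above WT in iWAT without overlap. The difference was -1.93 ± 0.45 (SE, edgeR adjusted p = 0.684). Ebp and Tm7sf2, a pair of sterol enzymes, were lower in every KO liver library with differences of -0.57 and -0.75, and had log2 fold changes of 0.04 each in iWAT.

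Thermogenic genes had positive differences for 8 of 11 members, with medians of -0.10 in liver, -0.65 in iWAT and 0.74 for the difference. Averaged over the list, log2 CPM was only -0.46 to -0.10 in KO liver libraries and -0.69 to -0.07 in WT liver libraries. Several members had few liver reads, so their liver fold changes and the median difference are poorly measured. Elovl3, which elongates very long chain fatty acids in beige fat and in liver, had 50.4, 55.0 and 29.2 CPM in KO liver libraries, against 11.1, 19.9 and 23.8 CPM in WT liver libraries. The iWAT level was 2.73, 2.12 and 2.46 CPM in KO libraries and 9.11, 2.96 and 14.9 CPM in WT libraries. The groups were apart in opposite directions, narrowly in iWAT, with a difference of 3.17 ± 0.70 (SE, edgeR adjusted p = 0.658). Pank1, which commits pantothenate to coenzyme A, had a difference of 1.03. Cox8b, a cytochrome oxidase subunit of beige fat and muscle, was at 0 in 5 of the 6 liver libraries, so no liver fold is given. It had 12.7, 7.84 and 6.43 CPM in KO iWAT libraries and 10.2, 6.84 and 8.40 CPM in WT iWAT libraries.

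Transcripts of the mitochondrial genome had positive differences for 13 of 13 genes, with a median of 0.38. The iWAT fold change was negative for all 13 (median -0.43), and the liver median was -0.01. Groups did not overlap in iWAT for 3 of them, mt-Nd1, mt-Nd2 and mt-Nd3, each lower in KO (5.7% of all genes were). Summed over the 13, the iWAT groups overlapped, at 33824, 21687 and 19504 CPM in KO libraries and 29450, 33474 and 36629 CPM in WT libraries. These transcripts come from shared precursors and are not separate observations.

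Enzymes of branched-chain amino acid breakdown, the pathway of the floxed gene, were close to even in liver. Of 24 tested, 18 had a positive difference, with a median of 0.17, from medians of -0.01 in liver and -0.16 in iWAT. Dld, the dehydrogenase subunit shared by several ketoacid complexes, had the lowest p in the list, with a difference of 0.89 ± 0.46 (SE, edgeR adjusted p = 0.973). Acat1 is a thiolase of isoleucine breakdown and ketone use. It had 496, 561 and 528 CPM in KO liver libraries and 371, 409 and 368 CPM in WT liver libraries. Its iWAT groups overlapped, and its difference was 0.53. Acadsb, which oxidises the isoleucine intermediate, had a difference of 0.58. The list's median was -0.04 without WT iWAT library 2 or KO iWAT library 2, and 0.55 without KO iWAT library 1. Averaged over the list, log2 CPM was 6.05, 5.21 and 5.32 in KO iWAT libraries and 5.11, 6.04 and 5.89 in WT iWAT libraries. Mature adipocyte markers put the 6 libraries in the same order, at 10.5, 9.26 and 9.46 in KO and 8.49, 10.2 and 9.68 in WT. The beta-oxidation list, at 7.38, 6.45 and 6.52 in KO and 6.66, 7.18 and 7.07 in WT, had the same 3 libraries highest. The part of adipocyte content in the values of these lists was not tested.

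Genes of hepatocyte function had mostly negative differences. Of 19 xenobiotic enzymes tested, 17 had a negative difference with a median of -0.65, from -0.31 in liver and 0.41 in iWAT, and 7 were lower in every KO liver library (7.0% of all genes were). Cyp2c70, which makes muricholic bile acids in mice, had 213, 266 and 323 CPM in KO liver libraries, against 845, 794 and 679 CPM in WT liver libraries. Its liver log2 fold change was -1.53 ± 0.33 (edgeR adjusted p = 0.388). Gstm3, a glutathione transferase, had 56.9, 21.9 and 40.1 CPM in KO liver libraries and 76.6, 72.9 and 97.6 CPM in WT liver libraries. Both genes stayed under 1 CPM in every iWAT library.

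In iWAT some genes of these lists had only traces, as Cyp2c70 and Gstm3 did. Others did not, such as Papss1 at 28.5 to 37.1 CPM over the iWAT libraries. Summed over the xenobiotic list, iWAT libraries held 1245 to 2874 CPM in KO and 1164 to 4712 CPM in WT. All 10 hepatocyte markers had a negative difference (median -0.80) and a positive iWAT fold change (median 0.49), at sums of 283, 122 and 140 CPM in KO iWAT libraries and 127, 103 and 185 CPM in WT iWAT libraries. KO iWAT library 1 had the highest sum. Without it the median of the xenobiotic list was -0.03, and that of the acute phase and plasma protein list was -0.25 where it was -0.67 with all libraries. Without WT liver library 2 the acute phase median was -0.31. The part of hepatocyte transcripts in these list medians was not tested beyond this.

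In liver, 20 of 21 acute phase and plasma protein genes had a negative fold change, with a median of -0.59, and 7 were lower in every KO library (7.0% of all genes were). Apcs, serum amyloid P, had 126, 116 and 163 CPM in KO liver libraries and 296, 639 and 208 CPM in WT liver libraries. Fgg, the gamma chain of fibrinogen, had 2401, 2839 and 3054 CPM in KO liver libraries and 4103, 4653 and 2829 CPM in WT liver libraries, with overlap. Saa3, a serum amyloid A protein that macrophages and fat cells make, had 1.58, 1.37 and 0.539 CPM in KO iWAT libraries, against 2.29, 14.3 and 12.0 CPM in WT iWAT libraries, and a difference of 3.21 ± 1.02 (SE, edgeR adjusted p = 0.938).

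Immediate early genes had higher levels in KO liver for part of the list. Jun, a subunit of the AP-1 transcription factor, had 44.5, 56.0 and 35.0 CPM in KO liver libraries, against 22.3, 19.9 and 20.1 CPM in WT liver libraries. In iWAT it had 31.0, 28 and 30.3 CPM in KO libraries and 24.7, 37.1 and 27.2 CPM in WT libraries. The liver groups were apart and the iWAT groups overlapped, with a difference of 1.12 ± 0.29 (SE, edgeR adjusted p = 0.752). Fos, its partner, had a difference of 1.85 and the transcription factor Egr1 one of 1.64, each from a liver separation (log2 fold changes of 2.05 and 1.98). Of 18 members tested, 11 had a positive difference, and in liver 5 were higher and 3 lower in every KO library (4.76% and 7.0% of all genes were).

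Amino acid stress genes had negative differences for 11 of 16 members, with medians of -0.33 in liver, 0.13 in iWAT and -0.42 for the difference. Asns, asparagine synthetase, had 5.13, 1.45 and 9.98 CPM in KO liver libraries, against 24, 19.9 and 33.6 CPM in WT liver libraries, and in iWAT 142, 53.3 and 61.5 CPM in KO libraries and 40.0, 131 and 97.8 CPM in WT libraries. Its liver groups were apart, and the difference was -2.18 ± 0.87 (SE, edgeR adjusted p = 0.973). Phgdh, which opens serine synthesis, had 136, 78.6 and 120 CPM in KO iWAT libraries and 61.8, 74.1 and 51.7 CPM in WT iWAT libraries. In liver it stood at 0.895, 0.302 and 0.634 CPM in KO libraries and 1.41, 1.21 and 0.922 CPM in WT libraries. Groups were apart in opposite directions and the difference was -1.83 ± 0.49 (adjusted p = 0.815). Ddit4, an inhibitor of the mTOR complex, had 31.4, 35.6 and 39.1 CPM in KO iWAT libraries and 15.7, 19.9 and 20.1 CPM in WT iWAT libraries, with a difference of -1.60.

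Genes of gluconeogenesis and glucose sensing had medians of 0.00 in liver and 0.20 in iWAT, and 7 of 11 had a negative difference. Pck1, which makes phosphoenolpyruvate for glucose and glycerol synthesis, had 572, 264 and 249 CPM in KO iWAT libraries and 57.1, 307 and 79.2 CPM in WT iWAT libraries, with overlap. Its difference was -1.45 ± 0.77 (SE, edgeR adjusted p = 0.973). The list's median difference was -0.39 with all libraries and 0.07 without KO iWAT library 1.

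The other list medians also depended on single libraries. With 1 library left out, the median difference ranged from 0.36 to 0.96 for beta-oxidation genes, from 0.17 to 0.69 for lipogenic genes and from 0.46 to 0.95 for thermogenic genes. The thermogenic median also ranged from 0.21 to 2.11 under the other processing alternatives. It ranged from 0.17 to 0.68 for mitochondrial transcripts, from -0.70 to -0.29 for cholesterol synthesis genes, from -0.90 to -0.44 for interferon response genes and from -0.48 to -0.10 for amino acid stress genes. For PPAR-alpha targets the range was 0.30 to 0.75. For growth hormone and STAT5 targets it was -0.43 to -0.03, and -0.42 to -0.05 under the other alternatives. The lowest or the highest of each range came without KO iWAT library 1 for beta-oxidation, PPAR-alpha, cholesterol synthesis and interferon response genes.

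**Figure D5:**
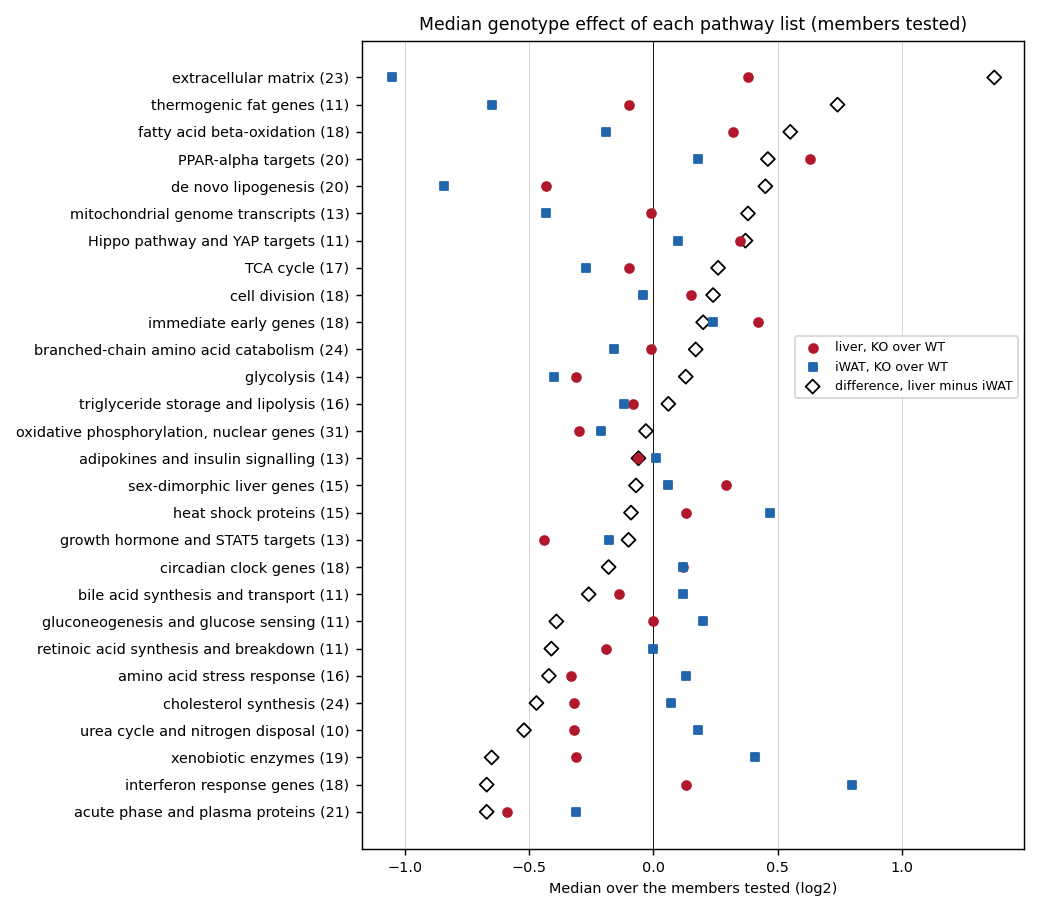
Median log2 value over the tested members of each of 28 pathway lists, with red circles for KO over WT in liver, blue squares for KO over WT in iWAT and open diamonds for the difference, liver minus iWAT; the number tested is in brackets. Extracellular matrix genes are at the top with a median difference of 1.37, and acute phase and interferon response genes at the bottom with -0.67 each.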

How the data were processed

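RNA-seq libraries of liver and iWAT, 3 per genotype and tissue, were analysed. The submitters' processing notes list mm10 and the tools fastp 0.18.0, HISAT2, Bowtie2 2.2.8, RSEM, StringTie 1.3.1, edgeR and DESeq2, without the role of each. Whether the kit marks strand is not stated in them, so overlapping and antisense genes cannot be told apart. Each library's file from the authors holds expected counts per gene beside the deposited FPKM values. Of the expected counts, 7.86% were at least 0.01 from a whole number. Of 22298 gene identifiers, 22255 matched a symbol in GENCODE M21.

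Expected counts were rounded, filtered with filterByExpr (minimum count 10, minimum total 15), scaled with TMM and fitted over the 12 libraries with 1 mean per group (edgeR 4.0.16, R 4.3.3; robust glmQLFit, glmQLFTest, two-sided, Benjamini-Hochberg over all genes, threshold 0.05). SEs are the log2 value divided by the square root of F. Steps were tested on simulated data. Alternatives used DESeq2 1.42.0, limma 3.58.1 (voom, and log2 FPKM plus 1 or 0.1), other scalings and filters, a replicate block, all 18 libraries, and each library left out. Replicate numbers were not taken as pairs, since the labels do not say whether equal numbers mark the same animal. Precision is limited by the 3 libraries per group.

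The 28 pathway lists, 20 marker lists, members and tests were chosen with earlier results of these data known. Named genes were Bckdha, the 6 genes of lowest p per direction with a proper symbol and mean log2 CPM of at least 0, none of which passed, plus the 3 members with the lowest p in each described list. Cish, Col1a1, Col4a1, Col4a2, the macrophage markers, mt-Nd1 to mt-Nd3 and the other Mup genes were named after their values were seen. Some members that this rule names are not reported here.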

Additional observations from a re-analysis of the deposited data

Results flagged for a closer look

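In 8 of the genes named above, every KO library lay on 1 side of every WT library in liver and on the opposite side in iWAT. The edgeR test of the difference did not pass the adjusted threshold for any of them. Opposite separation of this kind was found in 72 of 14673 genes (0.491%), and separation in the same direction in 96 (0.654%). Within single tissues the groups did not overlap for 11.8% of genes in liver and 9.38% in iWAT. Opposite separation was rarer than separation in the same direction. It was also no more frequent than these single-tissue shares give when tissues are unrelated. The 8 genes were named for a low p of the difference, a choice that favours opposite separation. With a positive difference, liver minus iWAT, on the log2 scale these were Rgs16 (3.05), Lum (2.94), Serpinb8 (2.55), Elovl3 (3.17) and Dcn (1.41). With a negative difference they were Oasl1 (-2.06), Insig1 (-1.93) and Phgdh (-1.83). The margins between the groups were narrow for Dcn in both tissues and for Elovl3 in iWAT, where KO reached 2.73 CPM and WT began at 2.96 CPM. For Phgdh the liver levels were under 1.5 CPM in all 6 libraries. DESeq2 called Rgs16, Lum, Serpinb8, Elovl3, Oasl1 and Insig1 among its 35 genes.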

How the results depend on the processing

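For the difference between the tissues, edgeR called 0 genes under every scaling, filter and block tried. DESeq2 called 19 higher and 16 lower, and limma on log2(FPKM + 0.1) called 3 higher (Rgs16, Mup18 and Mup22, adjusted p = 0.0495 each). Leaving out 1 library gave 0 to 1 higher and 0 lower. The main count within liver was 0; it was 3 with at least 1 CPM in both tissues, 45 with DESeq2, 1 with limma-voom, 11 with voom and a variance per tissue, 2 with log2(FPKM + 1), 1 with that and no filter, 3 with log2(FPKM + 0.1), and 0 to 3 with 1 library left out (Bcl6, Cish and Rgs16 without WT iWAT library 1 or 2). Within iWAT the count of 5 was 7 with at least 1 CPM in both tissues, 3 with DESeq2 size factors, upper quartile factors or TMM within each tissue, 0 with all 18 libraries, 73 with DESeq2, 2 with either voom fit, 41 with log2(FPKM + 1) and no filter, 3 without both WT libraries 2 (chosen after seeing the data), and 0 to 11 with 1 library left out. The cause was not tested.

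The replicate block gave 0 calls for the difference (lowest edgeR adjusted p 0.856 with the number within genotype, 0.58 with the number over all groups) and 0 within iWAT with the number over all groups. Same-numbered liver and iWAT libraries correlated at -0.09 to 0.091, none over 0.1, and the numbers were not taken as pairs. Such correlations between different tissues cannot decide whether the libraries come from the same animals.

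Signs turned for 3 genes near 0 or unmeasured in 1 tissue. Bckdha (-0.02) ranged from -0.25 to 0.29 with 1 library left out, at 0.20, 0.29, 0.01, 0.02 and 0.08 where positive. Cox8b (3.29, almost no liver reads) was -0.05 with log2(FPKM + 1), filtered or not, and -0.09 to 3.99 with 1 library left out. Cish (0.02) was -0.09 with either voom fit, -0.10 with the block within genotype, -0.07 with log2(FPKM + 0.1), -0.40 without both WT libraries 2, and -0.23 to 0.34 with 1 library left out, including -0.20. The other genes named by their p kept their sign under every alternative run. For the genes besides Cish that were named after their values were seen, signs under the alternatives are not given here. Within-tissue medians of all genes moved to 0.11 in liver and 0.14 in iWAT with log2(FPKM + 0.1); that of the difference stayed between -0.07 and 0.00. The thermogenic list's median difference (0.74) was 2.11 with at least 1 CPM in both tissues and 0.21 with log2(FPKM + 1) and no filter; that of the growth hormone and STAT5 list (-0.10) was -0.40 with either voom fit and -0.42 with the replicate block within genotype.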

Other observations

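Some of the other genes that DESeq2 called for the difference, and edgeR did not, are given here as values; they were chosen after their values were seen. Hmox1, heme oxygenase, which breaks down heme and is abundant in macrophages, had 65.1, 61.4 and 81.9 CPM in KO liver libraries, against 55.6, 49.6 and 53.8 CPM in WT liver libraries. In iWAT it had 40.9, 54.4 and 58.1 CPM in KO libraries and 128, 89.7 and 89.3 CPM in WT libraries. The groups were apart in opposite directions, with a DESeq2 log2 difference of 1.41 (DESeq2 adjusted p = 0.000405) and an edgeR adjusted p of 0.555. Selenop, the plasma selenium carrier, had 928, 1057 and 757 CPM in KO iWAT libraries and 1751, 2614 and 2370 CPM in WT iWAT libraries, without overlap, and a DESeq2 log2 difference of 1.56 (DESeq2 adjusted p = 0.00795).

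Mest, an imprinted gene linked to fat cell enlargement in mice, had 89.3, 15.5 and 9.49 CPM in KO iWAT libraries, against 1.82, 2.91 and 2.26 CPM in WT iWAT libraries. The liver groups overlapped, and the DESeq2 log2 difference was -4.21 (DESeq2 adjusted p = 0.0247). Sult1e1, the estrogen sulfotransferase, had 5.94, 11.5 and 18 CPM in KO liver libraries, against 0.564, 1.86 and 0.231 CPM in WT liver libraries. It stayed under 2 CPM in every iWAT library, and its DESeq2 log2 difference was 4.42 (DESeq2 adjusted p = 0.0398).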
